A study of Danio rerio with 6 samples.

Results

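The genes described here are 10 members of the fibroblast growth factor (FGF) pathway: the secreted ligands fgf8a, fgf10a and fgf24, the feedback inhibitors il17rd, spry1, spry2, spry4 and dusp6, and the target transcription factors etv4 and etv5b. They were chosen by name, with earlier results of these data known, as were the pathway and marker lists used below. Each of the 10 matched 1 Ensembl gene, and all were among the 22350 genes of the count table. RNA came from the trunk next to a severed spinal cord in zebrafish larvae of the wild-type AB strain. Every larva had its cord transected at 5 days post fertilization and was treated after 6 h of recovery. The IWR-1 group (3 libraries) was kept in 35 µM IWR-1, a compound that blocks Wnt signalling by stabilising Axin, with 0.25% DMSO, and the DMSO group (3 libraries) was kept in 0.25% DMSO alone. Tissue was taken at 3 days post injury, which is 8 days post fertilization, and each library pooled segments of about 1 mm from 20 animals. No uninjured larvae were analysed here, so both groups carry the injury and the vehicle.

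FGF ligands bind receptor tyrosine kinases with the help of heparan sulfate, and the receptors signal through Ras and the MAP kinase ERK. ERK activity switches on the ETS-family factors Etv4 and Etv5b, and also the genes of the pathway's own brakes: Sprouty proteins, the membrane protein Sef (encoded by il17rd) and the ERK phosphatase Dusp6. Transcripts of these targets are therefore widely read as a record of recent FGF signalling. In zebrafish, fgf24 and fgf10a are known for their roles in the outgrowth of the pectoral fin bud, and fgf8a for its roles in patterning the brain and other tissues.

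Libraries held between 11014963 and 15219664 counts, and 19562 genes were abundant enough to be tested. DMSO replicate 2 stood apart: on the second principal component, which held 21.4% of the variance, it lay at -39.3, against 25.8 and 32.9 for the other DMSO libraries. IWR-1 replicate 2 was likewise the lowest of its group there, at -22.6, against 12.6 for replicate 1 and -9.37 for replicate 3. Wnt readouts checked the treatment. The Wnt feedback gene notum1a had 2.23 ± 0.444 CPM (counts scaled to library size) with IWR-1 and 14.0 ± 1.91 CPM with DMSO (SD, n = 3 each). Of 4 such readouts 3 fell, notum1a, axin2 and nkd1, beside 3.59% of all tested genes called lower. The log2 fold change of lef1 was -0.62 ± 0.17 SE (edgeR adjusted p = 0.0502). This gene was called with the replicate block (0.0095), with DESeq2 (0.027) and without DMSO replicate 2 (0.00497). It was not called in the remaining settings, among them limma voom (0.0566), RLE scaling (0.0511) and upper-quartile scaling (0.0677). Without 1 other library its adjusted p was up to 0.199. axin2 and nkd1 were not called when DMSO replicate 1 or IWR-1 replicate 2 or 3 was left out, with adjusted p of up to 0.132 and 0.113. Markers of the labelled trunk tissue were present: 10 neuronal genes summed to between 425 and 478 CPM with IWR-1 and between 396 and 442 CPM with DMSO. For 10 skeletal muscle genes the sums ran from 50600 to 53600 CPM with IWR-1 and from 47500 to 53500 CPM with DMSO.

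Of the 3 ligand genes 2 fell with IWR-1, fgf10a and fgf24, and no feedback inhibitor or target gene passed the test. None of the 10 genes rose, by edgeR's quasi-likelihood test at a Benjamini-Hochberg adjusted p below 0.05 over all tested genes. Over all tested genes 3.59% were called lower and 3.88% higher. The count of 0 higher members was also 0 with DESeq2 and with limma voom, and no member was higher at an unadjusted p below 0.05, while 6 were lower at that level, beside 12.5% of all tested genes lower and 11.6% higher. Every fitted log2 fold change of the 10 was below 0, as were 50.5% of those over all tested genes. Those of spry1 and etv4 were above 0 with upper-quartile scaling (0.012 and 0.00040). With 1 library left out they reached up to 0.115 and 0.169. The median of the 10 was -0.41, beside -0.0060 over all tested genes. For 5 of the 10 every IWR-1 library lay below every DMSO library, as it did for 15.6% of tested genes. With the replicate number as a block, 5 of the 10 were called lower, against 8.86% of all tested genes: the 3 ligands, il17rd and spry4. That fit called 8.96% of all tested genes higher, and none of the 10.

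**Figure D1:**
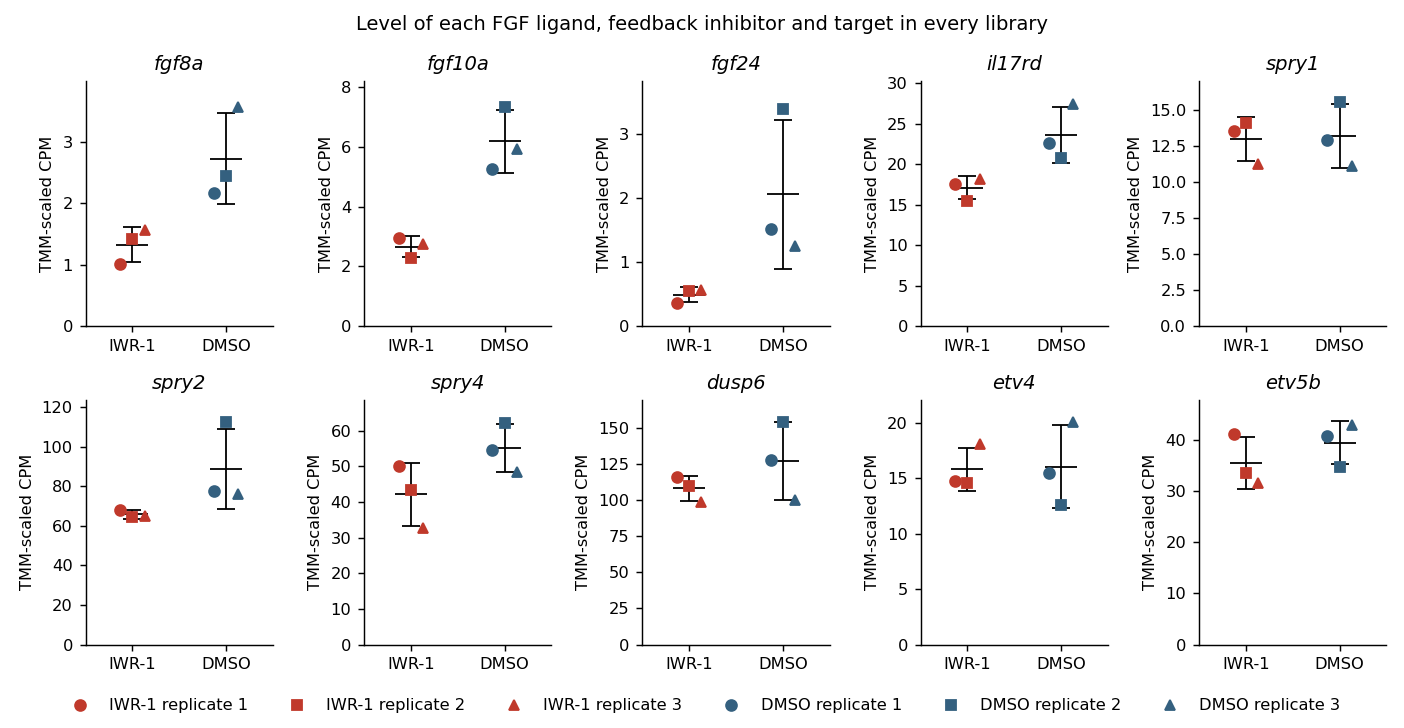
TMM-scaled CPM (vertical axis, from 0) of each of the 10 genes in every library, with IWR-1 in red on the left, DMSO in blue on the right, symbols for the replicate numbers, and black bars for the mean ± SD (n = 3 each). The groups do not overlap for fgf8a, fgf10a, fgf24, il17rd and spry2, and DMSO replicate 2 is the highest library for fgf10a, fgf24, spry1, spry2, spry4 and dusp6.

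fgf10a (ENSDARG00000030932, chromosome 21, 19635486 to 19683168, plus strand, GRCz11) encodes a ligand that signals from mesenchyme to epithelium in vertebrate limb and organ buds. It had 2.94, 2.28 and 2.76 CPM in IWR-1 replicates 1, 2 and 3, against 5.27, 7.35 and 5.94 CPM in the DMSO libraries. The groups did not overlap, and the lowest DMSO library stood well above the highest IWR-1 library. The log2 fold change was -1.21 ± 0.22 SE (95% interval -1.70 to -0.71, edgeR adjusted p = 0.0097). Summed counts were 109 with IWR-1 and 234 with DMSO, so the level was 2.29-fold lower with IWR-1 (95% counting interval 1.81 to 2.90, which covers counting error only). The spread between IWR-1 libraries, a coefficient of variation of 12.9%, was no larger than the 16.6% that counting alone would give at this depth. Between DMSO libraries it was 17.1%, above the 11.3% from counting alone. The adjusted p was 0.054 when IWR-1 replicate 2 was left out and 0.0542 when replicate 3 was, and without any other library fgf10a was still called. An antisense gene is annotated across all 47683 bases of fgf10a, and reads from the pair cannot be told apart if counting ignored strand. The antisense gene has no row in the count table.

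fgf24 (ENSDARG00000037677, chromosome 14, 5506983 to 5546497, minus strand) encodes a ligand of the Fgf8 subfamily. Its level was 0.359, 0.550 and 0.566 CPM in IWR-1 replicates 1, 2 and 3, and 1.52, 3.39 and 1.25 CPM in DMSO replicates 1, 2 and 3. All DMSO libraries were higher than all IWR-1 libraries, and DMSO replicate 2 was far above the other DMSO libraries. These levels rest on 5, 7 and 8 counts with IWR-1 and on 19, 36 and 19 counts with DMSO. The log2 fold change was -2.01 ± 0.48 SE (95% interval -3.06 to -0.96, edgeR adjusted p = 0.0286), and the ratio of summed counts gave a level 3.94-fold lower with IWR-1 (95% counting interval 2.38 to 6.82). fgf24 was the only one of the 10 genes to pass the filter on low counts, set at 0.754 CPM in 3 libraries, through its DMSO libraries alone. Its call was lost without any 1 library other than DMSO replicate 3, with adjusted p from 0.0515 to 0.108; without DMSO replicate 2 the log2 fold change was -1.47.

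fgf8a (ENSDARG00000003399, chromosome 13, 28495419 to 28501985, plus strand) encodes a ligand studied in many organs of the zebrafish embryo. It had 1.00, 1.41 and 1.56 CPM in IWR-1 replicates 1, 2 and 3, against 2.16, 2.45 and 3.56 CPM in the DMSO libraries. The groups did not overlap, and the log2 fold change was -1.05 ± 0.31 SE (95% interval -1.74 to -0.36) and did not pass the test (edgeR adjusted p = 0.0689); with the replicate number as a block it passed (adjusted p = 0.022). Summed counts were 54 with IWR-1 and 107 with DMSO. The log2 ratios within replicate numbers were -1.10, -0.79 and -1.19. All 3 would be below 0 under any pairing, because the groups did not overlap. An annotated antisense gene, which has no row in the count table, overlaps fgf8a over 1659 bases.

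Together the 3 ligands summed to between 4.24 and 4.88 CPM with IWR-1 and between 8.95 and 13.2 CPM with DMSO. Because whole tissue was sequenced, fewer cells of a type and less RNA per cell cannot be told apart in any of these values. Markers of the fin bud and fin fold moved with the ligands. The list held genes of the mesenchyme, a known site of fgf10a and fgf24 expression in zebrafish fin buds, and of the apical ridge. Of 14 such markers tested, 12 fell (13 with the replicate block) and none rose, beside 3.59% of all tested genes called lower (8.86% with the block). Their summed levels were 113 to 156 CPM in IWR-1 libraries and 559 to 620 CPM in DMSO libraries. Among them were the actinodin genes and1 and and2, which encode proteins of the fibres that stiffen the fin fold (log2 fold changes of -2.80 ± 0.22 and -2.73 ± 0.22 SE), sp9, a factor of the apical ridge (-2.02 ± 0.21), and prrx1a, a mesenchymal homeobox gene (-1.19 ± 0.15). Their edgeR adjusted p were 6.82e-05, 7.41e-05, 0.000331 and 0.00138. A large part of the summed levels came from and1 and and2. Their means were 26.3 and 30.6 CPM with IWR-1 and 183 and 203 CPM with DMSO. The fin bud genes tbx5a, tbx4, pitx1, hoxd13a and wnt2ba were also listed but had no row under these names in the count table. Levels of hand2 and fgf16 were too low to be tested. In the lateral line list, 2 of 11 tested markers fell (5 with the block), lfng, a modifier of Notch receptors (-0.73 ± 0.15), and tnfsf10l3 (-1.93 ± 0.40), and the list summed to between 313 and 322 CPM with IWR-1 and between 362 and 410 CPM with DMSO. lfng was not called when IWR-1 replicate 2 or 3 was left out (edgeR adjusted p of 0.0813 and 0.0978), nor tnfsf10l3 when IWR-1 replicate 1 or 3 or DMSO replicate 1 was (0.0567, 0.1 and 0.0611).

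Other marker lists moved as well, beside 3.59% of all tested genes called lower and 3.88% higher (8.86% and 8.96% with the block). Of 10 fibroblast markers 4 fell (7 with the block and 5 by DESeq2), with summed levels of 7440 to 9090 CPM in IWR-1 libraries and 13300 to 16800 CPM in DMSO libraries. The 4 were col1a1a, col1a2, lum and fmoda. Without the block edgeR did not call col5a1, dcn, pdgfra, pdgfrb, twist1a or tcf15. These fibroblast genes are named after their values were seen. The log2 ratio of the mean sums was -0.787, while the median log2 fold change of the fibroblast list was -0.448. The summed level thus need not stand for the whole list. Of 10 pigment cell markers 6 fell (7 with the block), at 142 to 153 CPM with IWR-1 and 414 to 471 CPM with DMSO, and of 10 epidermal markers 3 fell (6 with the block and 5 by DESeq2), at 2940 to 4390 CPM with IWR-1 and 4820 to 5820 CPM with DMSO. Markers of ependymo-radial glia, the progenitor-like glia that line the central canal, overlapped in level, at 1080 to 1170 CPM with IWR-1 and 1030 to 1390 CPM with DMSO, and so did those of notochord and cartilage, at 1240 to 2540 CPM with IWR-1 and 2090 to 2520 CPM with DMSO. In these lists 1 of 8 tested glial and 2 of 9 tested notochord and cartilage markers fell, and none rose, but the block called 1 notochord and cartilage marker higher. For 6 gut genes the sums were 66.9 to 110 CPM with IWR-1 and 46.9 to 58.9 CPM with DMSO, and 1 of the 3 that could be tested rose (2 with the block). edgeR, DESeq2 and limma voom called 0 of 10 neuronal and 0 of 10 muscle markers, with 2 and 3 at an unadjusted edgeR p below 0.05, although the block called 3 neuronal markers higher, and 2 muscle markers higher and 1 lower. The part of any of these cell types in the lower ligand levels was not tested.

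Among the feedback inhibitors 0 of 5 passed the edgeR test, with 3 lower at an unadjusted p below 0.05 (2 by DESeq2), a level that 12.5% of all tested genes reached in that direction. DESeq2 and limma voom called 0, and the replicate block called 2 lower, beside 8.86% of all tested genes. All 5 had fitted values below 0, as had 50.5% of all tested genes, and the median log2 fold change of the 5 was -0.39. The summed level of the 5 was between 226 and 266 CPM in IWR-1 libraries and between 264 and 365 CPM in DMSO libraries. A large part of it came from dusp6 and spry2, with means of 108 and 65.8 CPM with IWR-1 and 127 and 88.7 CPM with DMSO.

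il17rd (ENSDARG00000098359, chromosome 11, 42641404 to 42722658, plus strand) encodes Sef, a membrane protein that damps FGF receptor signalling. It had 17.6, 15.5 and 18.2 CPM in IWR-1 replicates 1, 2 and 3, against 22.6, 20.7 and 27.5 CPM in the DMSO libraries. Every IWR-1 library lay below every DMSO library. This gave a log2 fold change of -0.47 ± 0.16 SE (95% interval -0.82 to -0.11, edgeR adjusted p = 0.107), with an adjusted p of 0.0353 with the replicate block and 0.0451 without DMSO replicate 2. A protein-coding gene on the opposite strand, si:ch73-106k19.2, overlaps it over 2456 bases, but had only 60 counts in all libraries together.

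The Sprouty genes encode intracellular inhibitors of receptor tyrosine kinase signalling. spry2 (ENSDARG00000078308, chromosome 1, 5273481 to 5277583) had 68.2, 64.4 and 64.7 CPM in IWR-1 replicates 1, 2 and 3, against 77.8, 112 and 76.2 CPM in DMSO replicates 1, 2 and 3. The groups did not overlap, and DMSO replicate 2 was far above the rest. Its log2 fold change was -0.43 ± 0.17 SE (95% interval -0.80 to -0.066, edgeR adjusted p = 0.143), and -0.22 without DMSO replicate 2. The spread of spry2 between DMSO libraries was 22.9%, where counting alone gives 3.01%, while between IWR-1 libraries it was 3.20%, near the counting value of 3.34%.

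spry4 (ENSDARG00000068732, chromosome 21, 44684577 to 44691068) had 50.1, 43.4 and 32.7 CPM in IWR-1 replicates 1, 2 and 3, against 54.7, 62.2 and 48.5 CPM in the DMSO libraries. The groups overlapped, since IWR-1 replicate 1 lay above DMSO replicate 3, yet within replicate numbers IWR-1 was lower in 3 of 3 pairs. Its log2 fold change was -0.39 ± 0.17 SE (95% interval -0.77 to -0.0035, edgeR adjusted p = 0.203, and 0.0477 with the replicate block). Without IWR-1 replicate 3 it was -0.23.

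spry1 (ENSDARG00000103985, chromosome 14, 497695 to 498979) had 13.6, 14.1 and 11.3 CPM in IWR-1 replicates 1, 2 and 3, against 12.9, 15.5 and 11.2 CPM in the DMSO libraries. The libraries of the groups were interleaved, and replicate 3 was the lowest of each group. The log2 fold change of -0.02 ± 0.18 SE (edgeR adjusted p = 0.959) had a 95% interval of -0.42 to 0.38, so changes from 0.749-fold to 1.30-fold remained within it.

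dusp6 (ENSDARG00000070914, chromosome 25, 18326298 to 18330503) encodes the phosphatase that removes the activating phosphates from ERK. It had 116, 109.7 and 98.7 CPM in IWR-1 replicates 1, 2 and 3, against 128, 154 and 100.4 CPM in DMSO replicates 1, 2 and 3. The groups overlapped, and DMSO replicate 2 was again the highest library. The log2 fold change was -0.24 ± 0.17 SE (95% interval -0.61 to 0.14, edgeR adjusted p = 0.423), and -0.068 without DMSO replicate 2. With 4410 counts in the IWR-1 libraries together and 4755 in the DMSO libraries, counting error was small for this gene, at 2.61% per IWR-1 library and 2.51% per DMSO library, beside a spread of 8.17% and 21.2% between them.

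Neither target transcription factor was called: 0 of 2 by edgeR, 0 with p below 0.05 before adjustment, and 0 with DESeq2, limma voom or the replicate block. Beside this, edgeR called 3.59% of all tested genes lower and 3.88% higher (8.86% and 8.96% with the block). etv4 (ENSDARG00000018303, chromosome 12, 27536095 to 27568694), the gene long called pea3 in zebrafish, had 14.8, 14.5 and 18.1 CPM in IWR-1 replicates 1, 2 and 3, against 15.4, 12.6 and 20.1 CPM in the DMSO libraries. The groups were interleaved, and DMSO libraries held both the lowest and the highest value. This corresponds to a log2 fold change of -0.03 ± 0.19 SE (95% interval -0.46 to 0.40, edgeR adjusted p = 0.948). An antisense gene, also without a row in the count table, is annotated across the 32600 bases of etv4. The strand limit given for fgf10a thus applies to etv4 as well.

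etv5b (ENSDARG00000044511, chromosome 6, 14030903 to 14040161), also known as erm, had 41.2, 33.6 and 31.6 CPM in IWR-1 replicates 1, 2 and 3, against 40.7, 34.7 and 42.8 CPM in the DMSO libraries. IWR-1 replicate 1 lay among the DMSO libraries. It differed by a log2 fold change of -0.15 ± 0.15 SE (95% interval -0.49 to 0.18, edgeR adjusted p = 0.575). The 95% intervals of the feedback and target genes reach down to 0.749-fold for spry1, 0.729-fold for etv4, 0.712-fold for etv5b, 0.657-fold for dusp6, 0.586-fold for spry4, 0.576-fold for spry2 and 0.565-fold for il17rd. Those of the ligands end at 0.780-fold for fgf8a, 0.610-fold for fgf10a and 0.515-fold for fgf24. All 7 feedback and target genes thus overlap fgf8a, and il17rd, spry2 and spry4 also overlap fgf10a. No test of the difference between ligand and target genes was run.

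**Figure D2:**
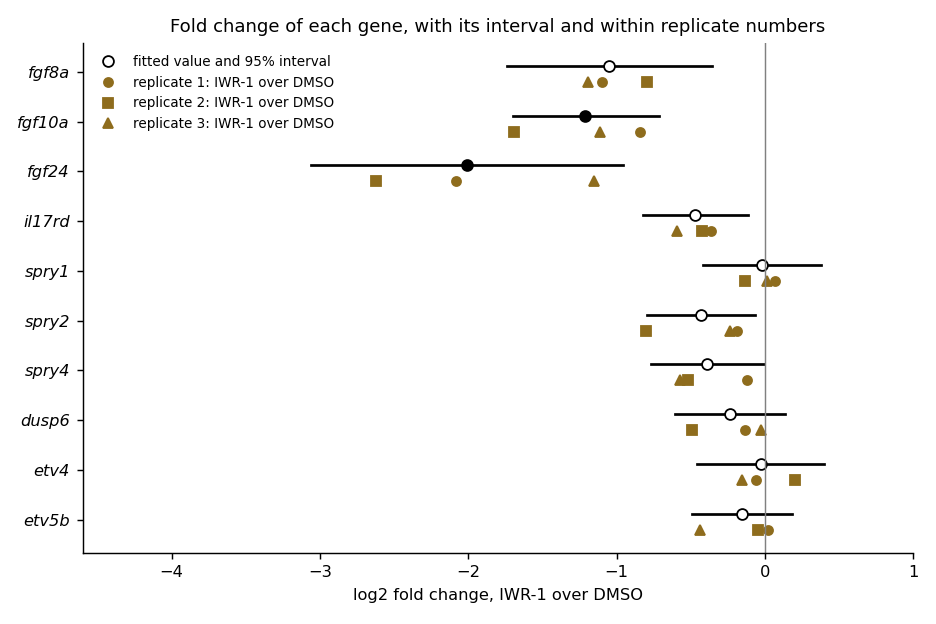
Log2 fold change of IWR-1 over DMSO (horizontal axis) for each of the 10 genes: circles with black lines give the fitted value and its 95% interval, not adjusted for the number of genes, and filled circles have an adjusted p below 0.05. Brown symbols give the ratio within each replicate number. The fitted values of the ligands lie furthest below 0. IWR-1 was lower in 3 of 3 pairs for fgf8a, fgf10a, fgf24, il17rd and spry2, which follows from their groups not overlapping. It was lower in 3 of 3 pairs for spry4 and dusp6 as well, whose groups overlapped. For dusp6 the log2 ratio of replicate 3 was only -0.0245.

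In the authors' deposited table the same 2 genes had an adjusted p below 0.05 among the 10: fgf10a with a log2 fold change of -1.01 ± 0.25 and an adjusted p of 0.00193, and fgf24 with -1.18 ± 0.33 and 0.00874. For fgf8a the authors' deposited table gave -0.76 ± 0.30 and an adjusted p of 0.105. These log2 values in the authors' deposited table are nearer to 0 than the fitted ones above, most of all for fgf24, the gene with the fewest counts.

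Calls of 5 of the 10 genes depended on the setting. Across the 13 other settings, fgf10a was called in all but 2 and fgf24 in all but 5, each of the exceptions being a fit with 1 library left out. fgf8a and spry4 were called only with the replicate block, and il17rd with the block and without DMSO replicate 2.

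**Figure D3:**
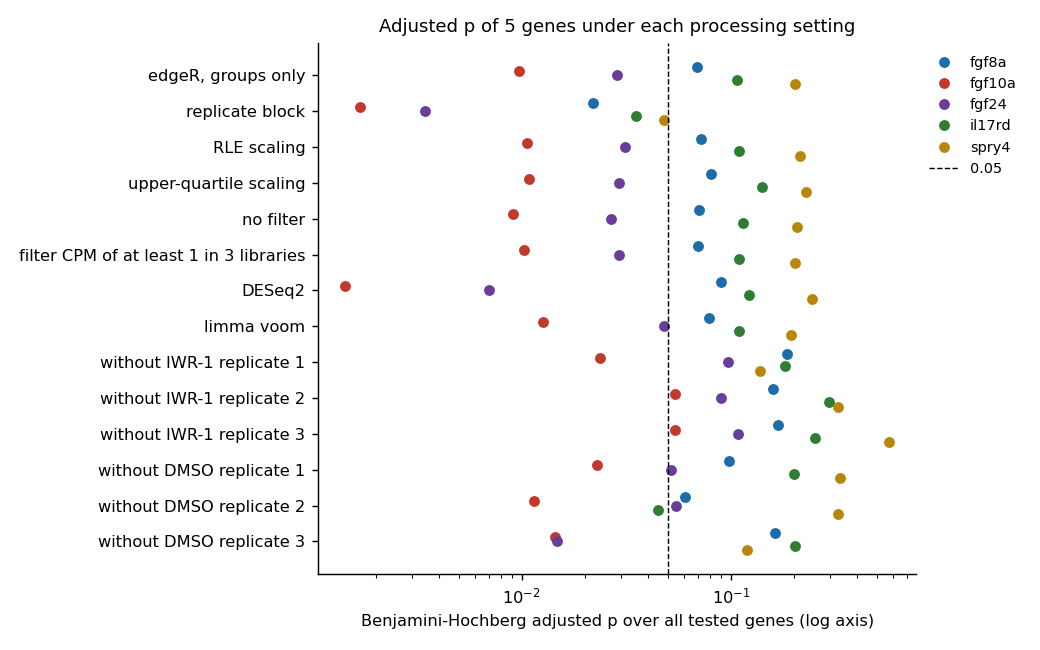
Benjamini-Hochberg adjusted p (horizontal log axis, dashed line at 0.05) of fgf8a, fgf10a, fgf24, il17rd and spry4 under the fit with groups only (top row) and 13 other settings. fgf10a lies left of the line or just past it (0.054 and 0.0542), while fgf24 moves to between 0.0515 and 0.108 in 5 of the 6 fits with a library left out.

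The other genes of the pathway were read from 6 lists by role, 104 names in all, of which 97 had counts and 90 could be tested. Of these, 2 fell and 2 rose, beside 3.59% of all tested genes called lower and 3.88% higher. With the replicate block 5 were called lower and 5 higher, beside 8.86% and 8.96% of all tested genes. The median log2 fold change was -0.036, and 50 of the 90 were below 0, beside 50.5% of all tested genes. IWR-1 libraries lay wholly below DMSO libraries for 9 of these genes and wholly above for 9, beside 15.6% and 14.2% of all tested genes.

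Among other secreted ligands 1 of 11 tested genes fell, beside 3.59% of all tested genes. fgf18b, of a ligand family known in mammals for its roles in bone and cartilage, had 0.646, 0.471 and 0.425 CPM in IWR-1 replicates 1, 2 and 3, against 2.00, 2.26 and 1.52 CPM in the DMSO libraries. The groups did not overlap, and like fgf24 it passed the filter through its DMSO libraries alone. Its log2 fold change was -1.87 ± 0.36 SE (edgeR adjusted p = 0.012), with an adjusted p of 0.0606 when IWR-1 replicate 2 was left out and of 0.0778 when replicate 3 was. fgf4 (-0.50 ± 0.19, edgeR adjusted p = 0.141) and fgf6a (-0.16 ± 0.18, edgeR adjusted p = 0.628) did not pass; their levels were 7.43 ± 0.169 and 14.6 ± 0.908 CPM with IWR-1 and 10.6 ± 2.30 and 16.3 ± 3.21 CPM with DMSO (SD, n = 3 each).

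A further 7 ligands had between 13 and 57 counts in all libraries together and were not tested. Of these, fgf7, a ligand that acts on epithelia in mammals, is named after its values were seen. It had 2, 0 and 0 counts in IWR-1 replicates 1, 2 and 3, against 10, 7 and 21 counts in the DMSO libraries, which is 20.2-fold lower with IWR-1 (95% counting interval 5.23 to 173). Without a filter on low counts edgeR gave it an adjusted p of 0.0144. The remaining 6 are named after their values were seen too. fgf16, a ligand expressed in zebrafish fin folds, had 16 counts with IWR-1 and 41 with DMSO, 2.73-fold lower with IWR-1 (95% counting interval 1.5 to 5.21), at an adjusted p of 0.113 in that fit. Summed counts were 2 with IWR-1 and 11 with DMSO for fgf19, 7 and 13 for fgf21, and 11 and 13 for fgf10b. In the other direction fgf22 had 20 counts with IWR-1 and 13 with DMSO, and fgf17 had 27 and 25, and none of these 5 had an adjusted p below 0.217 in that fit.

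The receptors showed no call, beside 3.59% of all tested genes called lower and 3.88% higher (8.86% and 8.96% with the block). Of 8 tested receptor and Klotho genes, edgeR called 0, with 0 below 0.05 before adjustment, and 0 were called by DESeq2, limma voom or the replicate block; log2 fold changes ran from -0.21 to 0.12. fgfr2 had 139 ± 15.7 CPM with IWR-1 and 128 ± 9.07 CPM with DMSO, and fgfr3 198 ± 52.5 and 219 ± 45.2 CPM (SD, n = 3 each). For fgfrl1a and fgfr4 the log2 fold changes were -0.21 ± 0.15 and -0.19 ± 0.15 SE, at edgeR adjusted p of 0.411 and 0.461.

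Of 7 intracellular FGF homologous factors, which are not secreted and bind sodium channels, edgeR called 0, with 1 below 0.05 before adjustment, while DESeq2 and limma voom called 0 and the replicate block 1. That 1 was fgf11a, at -0.67 ± 0.25 SE (edgeR adjusted p = 0.129, and 0.0441 with the block). Over all tested genes 3.59% were called lower and 3.88% higher (8.86% and 8.96% with the block). fgf12b (0.33 ± 0.19) and fgf13a (-0.28 ± 0.24) had adjusted p of 0.319 and 0.501.

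In the adaptor and Ras-MAPK list edgeR called 0 of 24, with 1 below 0.05 before adjustment, DESeq2 and the replicate block each called 1 and limma voom 0. That gene was map2k1, which encodes the ERK kinase Mek1, with 20.3 ± 2.06 CPM in IWR-1 and 29.5 ± 2.76 CPM in DMSO libraries (SD, n = 3 each). It differed by -0.54 ± 0.15 SE on the log2 scale (edgeR adjusted p = 0.0532, and 0.0159 with the block). Of all tested genes, edgeR called 3.59% lower and 3.88% higher (8.86% and 8.96% with the block). mapk3, the gene of the kinase Erk1, was at -0.32 ± 0.18, frs2a, a docking adaptor of FGF receptors, at 0.38 ± 0.20 and gab1, another adaptor, at 0.06 ± 0.14; gab1 was at -0.036 without IWR-1 replicate 1.

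In the list of other feedback and target genes, 2 of 18 tested rose and none fell, beside 3.88% of all tested genes higher and 3.59% lower. The median log2 fold change of this list was 0.017. etv1, which encodes a further member of the Etv4 and Etv5 family, had 16.1, 13.9 and 12.6 CPM in IWR-1 replicates 1, 2 and 3, against 6.23, 6.50 and 3.70 CPM in the DMSO libraries. Its log2 fold change was 1.39 ± 0.23 SE (95% interval 0.89 to 1.89, edgeR adjusted p = 0.00493). dusp5, which encodes a nuclear phosphatase of ERK, had 9.18, 11.0 and 9.20 CPM in IWR-1 replicates 1, 2 and 3, against 4.95, 2.73 and 3.96 CPM in the DMSO libraries (log2 fold change 1.32 ± 0.23 SE, 95% interval 0.82 to 1.82, edgeR adjusted p = 0.00644). The groups did not overlap for etv1 or dusp5, and both were called without any 1 library, at adjusted p of at most 0.022 and 0.036.

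The intervals of etv1 and dusp5 lie wholly above those of their relatives etv4, etv5b and dusp6, whose upper ends were 0.40, 0.18 and 0.14; the differences themselves were not tested. Markers of other cell types moved alongside. Of 10 macrophage markers 3 rose (6 with the block) and none fell, beside 3.88% of all tested genes called higher (8.96% with the block). Their summed levels were 269 to 430 CPM in IWR-1 libraries and 190 to 246 CPM in DMSO libraries. The 3 were mpeg1.2, ptprc and lcp1. Without the block edgeR did not call mpeg1.1, csf1ra, csf1rb, marco, mfap4, cd74a or cd74b. These macrophage markers are named after their values were seen. The part of any such cell type in the higher etv1 and dusp5 levels was not tested. The replicate block added myca and fosab, named after their values were seen. In the blocked edgeR fit they were at 0.43 ± 0.14 and 0.44 ± 0.14 SE (adjusted p = 0.0432 and 0.045). Without the block the edgeR adjusted p were 0.194 and 0.239. spred1, a Sprouty-related inhibitor, was at -0.13 ± 0.15 and flrt2, a membrane protein, at 0.0094 ± 0.14 (-0.040 without IWR-1 replicate 2, and -0.086 without DMSO replicate 3).

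**Figure D4:**
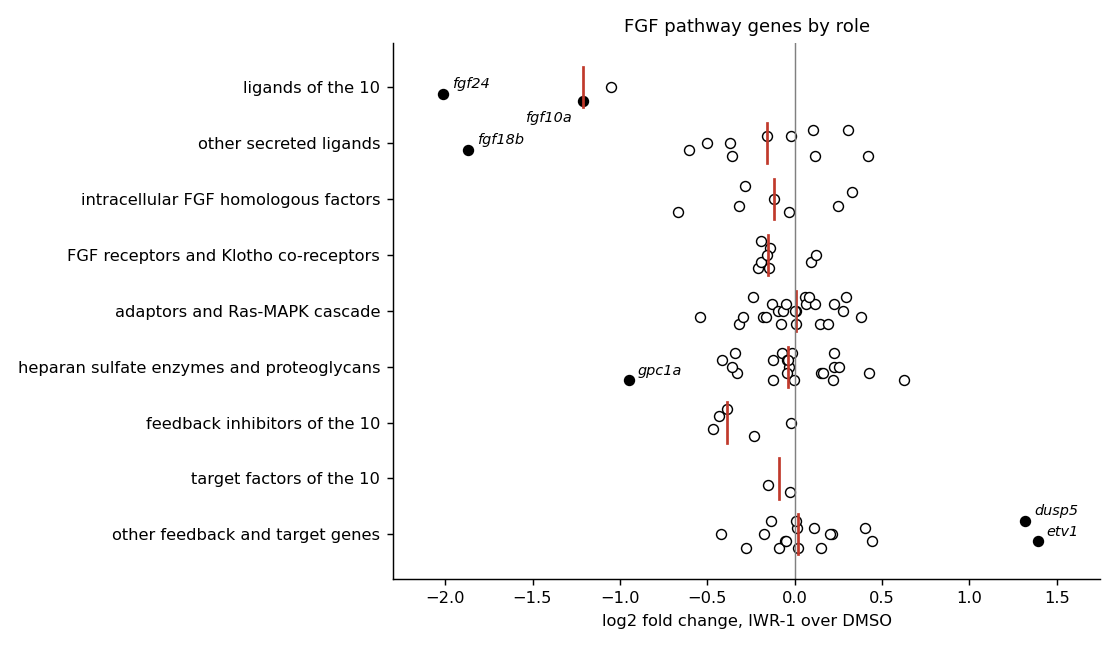
Log2 fold change of IWR-1 over DMSO (horizontal axis) for the 10 genes and the 90 other tested genes of the FGF pathway, 1 circle per gene in rows by role, with filled and named circles for an adjusted p below 0.05 and red bars for each row's median. The called ligands fgf24, fgf18b and fgf10a and the proteoglycan gene gpc1a lie at the left, dusp5 and etv1 at the right, and the receptors between -0.21 and 0.12.

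Heparan sulfate presents FGF ligands to their receptors. Over all tested genes 3.59% were called lower and 3.88% higher, and of 22 tested genes that make, trim or carry heparan sulfate, 1 fell and none rose. This was gpc1a, which encodes a glypican, a cell-surface carrier of heparan sulfate, with 7.24, 5.03 and 7.36 CPM in IWR-1 replicates 1, 2 and 3, against 13.4, 12.7 and 11.9 CPM in the DMSO libraries. The groups did not overlap (log2 fold change -0.95 ± 0.19 SE, edgeR adjusted p = 0.0141), and the adjusted p was 0.0729 without IWR-1 replicate 2, 0.0513 without IWR-1 replicate 3 and 0.0605 without DMSO replicate 1. ext2, which encodes an enzyme that builds the heparan sulfate chain and is named after its values were seen, was at -0.42 ± 0.16 (edgeR adjusted p = 0.15, and 0.0365 with the replicate block). sulf2a, an enzyme that removes sulfate groups from heparan sulfate, was at 0.63 ± 0.19 (edgeR adjusted p = 0.0667, 0.0104 with the replicate block and 0.0449 with DESeq2). The syndecan genes sdc4 (-0.04 ± 0.16) and sdc2 (-0.03 ± 0.16) did not pass, and both were above 0 without DMSO replicate 2 (0.13 and 0.059).

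Genes whose levels followed those of the called ligands most closely were found by the root mean square difference of log2 CPM over the 6 libraries, each gene centred on its own mean. For fgf10a the nearest were dhrs3a, a retinaldehyde reductase gene, at 0.0784, ackr3b, a chemokine scavenger receptor gene, at 0.086, and hpdb at 0.101. These 3 had log2 fold changes of -1.14 ± 0.23, -1.16 ± 0.16 and -1.11 ± 0.17 SE. Because likeness was measured across both groups, values near that of fgf10a follow from how the genes were picked. For fgf24 the nearest were dre-mir-21-2 at 0.172, the histamine receptor gene hrh3 at 0.176 and uraha at 0.188. No tested gene at 1 CPM or more with an informative name thus followed fgf24 as closely as the nearest ones followed fgf10a. Counting error was also larger for fgf24, at 38.7% per IWR-1 library, beside 16.6% for fgf10a. The 3 genes nearest to fgf24 had log2 fold changes of -1.60 ± 0.33, -1.69 ± 0.46 and -2.11 ± 0.40 SE. Of these hrh3 was not called (edgeR adjusted p = 0.0507, and 0.00382 with the replicate block). Like fgf24, each was highest in DMSO replicate 2, at 12.43, 5.65 and 10.55 CPM. The other DMSO libraries reached at most 6.07, 2.08 and 4.62 CPM. As for fgf10a, the fold changes of these genes and their peak in DMSO replicate 2 follow from how they were picked.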

How the data were processed

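The authors deposited raw counts per Ensembl gene for the 6 libraries; the submitters' processing notes name STAR, featureCounts, cutadapt and FastQC and the build GRCz11, with versions and use of strand not given in the sources used here. Per the labels' protocols, RNA was extracted with a kit for fixed tissue and libraries were directional and depleted of ribosomal RNA. The authors' deposited table also holds log2 fold changes and p-values per gene, in columns named as DESeq2 names them; 869 of its adjusted p-values are empty. Columns were tied to samples through the deposited sample sheet, and the deposited annotation gave gene names and positions.

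Counts were tested in edgeR 4.0.16 (R 4.3.3) with TMM scaling, filterByExpr and a robust quasi-likelihood fit of 2 groups of 3, which left 19562 genes and removed 2788; genes with a Benjamini-Hochberg adjusted p below 0.05 were called. A standard error is the log2 fold change over the root of the F statistic. Intervals are at 95%; counting intervals use exact binomial limits on summed counts, and reads may not be independent molecules. The common biological coefficient of variation was 17.0%. Levels are CPM and are not set per length, so they are not compared between genes. Replicates are biological per the labels, which do not say whether they came from separate clutches. Samples of the same number deviated together (correlations of deviations from group means of 0.280, 0.328 and 0.153), a pairing seen in the data and not stated in the labels; the blocked value stands beside a result where it changes the call. Replicate libraries all differed by more than sampling noise (chi-square over its degrees of freedom of at least 8.18). Alternatives were the block, other scalings and filters, DESeq2 1.42.0, limma 3.58.1 voom and each library left out. In 10 simulated count sets for this comparison, each over its 19562 genes with 50 changed genes per size, edgeR recovered on average 68.2% of genes lowered 2-fold (58% to 82% by set), 77.4% of those raised 2-fold (66% to 84%) and 17.4% of those raised 1.5-fold (4% to 30%), and 4.33% of calls were false. The changed genes were drawn from those with a mean of 1 CPM or more. Spread was set by its trend with level, with no effect shared within replicate numbers, so these rates need not hold for the real counts.

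The 10 genes, the pathway lists and the marker lists were chosen with earlier results of these data known. Genes named are the 10, every called gene of the pathway lists, the 2 with the smallest p and the 2 with the highest mean CPM in each, up to 4 called markers of the fin and lateral line lists, 4 Wnt readouts, and the 3 genes nearest to each called member; others are said to be named after their values were seen. Where a symbol had several IDs the first with counts was used. Sequences are not shown.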

Additional observations from a re-analysis of the deposited data

How the results depend on the processing

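With the replicate block, the genes called lower and higher were 1733 and 1753 over all tested genes, 5 and 5 in the other FGF pathway genes and 5 lower among the 10, against 703 and 759, 2 and 2, and 2 without it. Leaving out 1 library at a time gave 189 to 1082 lower and 258 to 1035 higher genes over all tested, 0 to 5 lower and 2 to 2 higher pathway genes, and 0 to 2 lower members. The members lower were 0 without IWR-1 replicate 2 or 3, and 1 without DMSO replicate 1 or IWR-1 replicate 1. Without DMSO replicate 2 the lower pathway genes were fgf7, fgf18b, gpc1a, map2k1 and sulf1 (the first and last named after their values were seen). DESeq2, limma voom, RLE and upper-quartile scaling and the other filters gave 2 lower and 0 higher members each. Of 130 values of the 10 genes under alternatives, 7 lost and 4 gained a call and 7 changed sign: spry1 (0.012 with upper-quartile scaling, -0.13 to 0.12 over the fits with 1 library left out) and etv4 (0.00040, and -0.17 to 0.17), neither called in any. Of 494 values of other named genes, 22 lost and 13 gained a call and 8 changed sign, all of the latter in genes never called: gab1 (-0.036 to 0.11), flrt2 (-0.086 to 0.091), fgfr3 (-0.35 to 0.040), sdc2 (-0.13 to 0.081) and sdc4 (-0.15 to 0.13). The causes were not tested. Depth limits the untested ligands and the called genes of low count, among them tnfsf10l3, fgf24 and fgf18b, with 17, 20 and 21 counts in all IWR-1 libraries together.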
